A study of Mus musculus with 16 samples.

Results

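The receptors described here are 41 mouse genes for receptors of cytokines and growth factors, chosen by name and grouped by the chain or family they belong to. Of these 41 genes, 35 had a named probe on the array, out of 16593 genes with a named probe. After a filter on dim probes 29 of them were tested, out of 8828 genes tested, and the brightest probe, by its mean on all arrays, stood for a gene that had more than 1. Expression was read from total RNA on 16 single-colour Illumina mouse Ref-8 BeadChips. Bone marrow from 8-week-old mice was enriched for c-Kit, transduced with a GFP retrovirus, grown with IL-3, IL-6 and SCF, and sorted for GFP and c-Kit together at 48 hours. The 4 groups, with 4 arrays each, were Booreana cells with MSCV-AML1-ETO9a-I-GFP, Booreana cells with the control vector MSCV-I-GFP, C57Bl6 wild-type cells with MSCV-AML1-ETO9a-I-GFP, and wild-type cells with MSCV-I-GFP. Booreana mice carry a mutation in Myb that weakens the contact of c-Myb with the coactivator p300, and AML1-ETO9a is a truncated form of the leukaemia fusion protein AML1-ETO that still holds the DNA-binding domain of RUNX1. The labels name 4 Booreana mice and give no number for wild-type mice, and they do not say that the arrays of a group came from separate mice. The p-values below therefore measure the spread between these samples, which may be partly technical.

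Cytokine receptors carry signals from secreted proteins into blood cells and their progenitors. Most have no enzyme activity of their own and work through JAK kinases bound to their tails, which activate STAT transcription factors and are held back by SOCS proteins. Many share a chain: the receptors for IL-3, GM-CSF and IL-5 share the common beta chain, those for IL-2, IL-7 and their relatives the common gamma chain, and those for IL-6, LIF and IL-27 the chain gp130. IL-1 and IL-18 receptors signal through MyD88 instead, and TGF-beta receptors are themselves kinases that act on SMAD proteins. In bone marrow these receptors are known for directing the survival and lineage choice of progenitors, and the culture medium used here supplied ligands for several of them.

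Levels are log2 normalized intensities, and a difference on this scale is the first-named group minus the second. A difference carries its standard error from a limma model of all 4 groups, and it is called where the Benjamini-Hochberg adjusted p over all 12760 tested probes is under 0.05. A fold change is the same difference on the linear scale. Where a probe was detected on no array of the lower group, the fold is given as a bound ("at least"), computed against the dimmest detected signal of each array. Levels of different probes are not comparable with each other.

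Median raw intensity lay between 189 and 250 over the arrays, and between 39.5% and 46.7% of probes were detected. Replicate 2 of the Booreana control group stood apart, with the lowest share detected and a mean correlation of 0.845 with the other arrays, against 0.931 to 0.955 for the rest. Where leaving it out changed a receptor's call, both values are given, and so they are for several printed differences that it moved. Values without it are not printed for every receptor. Kit, the gene of the protein used in the sort, had no named probe and was not analysed here. Of the markers of cells outside the myeloid lineage, 6 of 9 for T and NK cells, 3 of 6 for B cells and 4 of 8 for stroma and endothelium were detected on at least 1 array. The others, Cd3e, Cd8a and Ncr1 (T and NK cells), Pax5, Ebf1 and Blnk (B cells) and Col1a1, Col3a1, Cdh5 and Dcn (stroma and endothelium), were detected on none.

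The promoters below belong to the 3 receptor genes called between AML1-ETO9a and control cells, and to Csf2rb2 and Csf3r, called in opposite directions between Booreana and wild-type cells. They were taken from RefSeq on build GRCm38.p6 and run 5′ to 3′ on the gene's own strand, from 250 bases before the annotated start to 50 bases after it. Capitals mark matches to TGTGGT or its reverse complement ACCACA, a core sequence bound by RUNX proteins, and to AACNG or its reverse complement CNGTT, a core sequence bound by MYB.
The Il2ra promoter, chr2:11642542-11642841 on the plus strand, held 2 matches to the MYB letters.
Il2ra: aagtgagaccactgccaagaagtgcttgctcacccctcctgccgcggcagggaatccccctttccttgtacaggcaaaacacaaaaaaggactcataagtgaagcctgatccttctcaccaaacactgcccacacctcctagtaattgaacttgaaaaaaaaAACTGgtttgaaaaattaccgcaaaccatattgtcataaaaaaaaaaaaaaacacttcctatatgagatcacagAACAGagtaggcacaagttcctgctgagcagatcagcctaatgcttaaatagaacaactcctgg
The first of 2 Lifr promoters, chr15:7129322-7129621 on the plus strand, held 1 match to the MYB letters, and the second, not shown, held no match of either kind.
Lifr: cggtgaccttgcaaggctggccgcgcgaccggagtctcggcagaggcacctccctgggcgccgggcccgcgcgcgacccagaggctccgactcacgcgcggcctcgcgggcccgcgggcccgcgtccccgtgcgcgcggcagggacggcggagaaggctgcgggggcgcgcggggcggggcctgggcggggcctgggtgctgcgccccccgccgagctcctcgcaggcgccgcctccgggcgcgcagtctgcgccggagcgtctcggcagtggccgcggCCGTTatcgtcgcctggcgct
The second of 3 Il18r1 promoters, chr1:40465371-40465670 on the plus strand, held 1 match to the RUNX letters, 22 to 27 bases after the annotated start, and 3 to the MYB letters, a pair of which overlap each other. The other two entries, not shown, held no match to the RUNX letters, and 3 and 2 matches to the MYB letters.
Il18r1: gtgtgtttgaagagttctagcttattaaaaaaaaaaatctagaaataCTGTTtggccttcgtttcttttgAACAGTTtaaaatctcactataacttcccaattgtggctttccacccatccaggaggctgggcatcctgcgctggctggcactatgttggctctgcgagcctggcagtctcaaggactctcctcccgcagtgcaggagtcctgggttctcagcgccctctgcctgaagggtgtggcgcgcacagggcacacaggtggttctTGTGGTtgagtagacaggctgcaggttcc
The Csf2rb2 promoter, chr15:78305672-78305971 on the minus strand, held 1 match to the MYB letters, after the annotated start.
Csf2rb2: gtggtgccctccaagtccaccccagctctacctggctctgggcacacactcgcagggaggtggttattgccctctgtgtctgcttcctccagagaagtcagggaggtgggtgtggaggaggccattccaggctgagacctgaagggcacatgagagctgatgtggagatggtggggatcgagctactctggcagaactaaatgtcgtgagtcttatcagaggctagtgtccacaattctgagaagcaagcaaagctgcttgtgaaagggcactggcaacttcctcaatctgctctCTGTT
The Csf3r promoter, chr4:126024409-126024708 on the plus strand, held 1 match to the MYB letters.
Csf3r: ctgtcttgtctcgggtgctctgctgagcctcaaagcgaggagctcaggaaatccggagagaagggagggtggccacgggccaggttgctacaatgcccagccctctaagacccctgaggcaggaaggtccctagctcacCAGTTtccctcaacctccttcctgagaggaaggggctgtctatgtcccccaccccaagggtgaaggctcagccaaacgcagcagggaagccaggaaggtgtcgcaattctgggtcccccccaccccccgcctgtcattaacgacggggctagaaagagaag
Promoter entries existed for 34 of the receptor genes, 42 promoters in all. The RUNX letters occurred in 10 of these 42 (23.8%) and in 16.8% of all 32851 promoters of the same length, and the MYB letters in 36 of the 42 (85.7%) and in 80.3% of all promoters. RUNX and MYB matches did not overlap in the promoters shown. A match of letters is a description of the sequence and not a measured binding site.

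Of the receptor genes, 7 were called in at least 1 comparison. With AML1-ETO9a, Il2ra and Lifr rose and Il18r1 fell in wild-type cells, and Lifr rose in Booreana cells. In Booreana control cells Csf2rb2, Il27ra, Il2ra and Lifr were higher and Csf3r and Tnfrsf1a lower than in wild-type control cells. With AML1-ETO9a in both genotypes, Csf2rb2 and Il27ra were higher in Booreana cells than in wild-type cells. For each of these calls the values of the groups compared did not overlap.

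**Figure D1:**
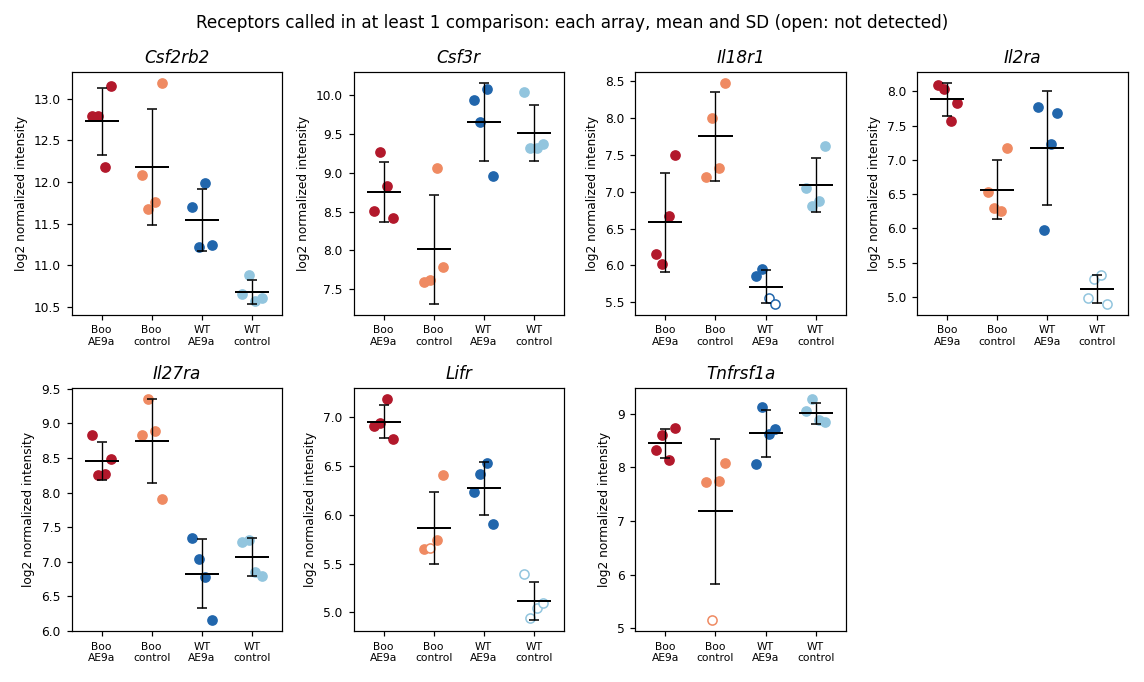
Log2 normalized intensity (y axis) of the 7 receptor genes called in at least 1 comparison, by group (x axis: Booreana, Boo, and wild-type, WT, cells with AML1-ETO9a, AE9a, or control vector). Points are arrays, open where the probe was not detected, and bars are the mean and SD of 4 arrays. Il2ra and Lifr are open in all 4 wild-type control arrays, and the lowest Tnfrsf1a value, 5.16, is replicate 2 of the Booreana control group.

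Set against all genes, these counts were as follows. In wild-type cells 3 of the 29 receptors were called with AML1-ETO9a against control, 2 higher and 1 lower, beside 4.93% of all tested genes called, 2.88% higher and 2.05% lower. The median receptor difference there was 0.12, against 0.02 over all genes. An unadjusted p was under 0.05 for 10 of the 29, beside 1299 of the 8828 genes. In Booreana cells 1 of the 29 receptors was called with AML1-ETO9a, higher, beside 2% of all genes, 1.29% higher and 0.714% lower, with a median difference of 0.38 against -0.05 over all genes. Again 10 of the 29 had an unadjusted p under 0.05, beside 1169 of the 8828 genes. Between Booreana and wild-type control cells 6 of the 29 were called, 4 higher and 2 lower, beside 7.39% of all genes, 4.49% higher and 2.9% lower, with a median of 0.18 against 0.04 over all genes. With AML1-ETO9a in both, 2 of the 29 were called, both higher in Booreana cells, beside 4.21% of all genes, 2.63% higher and 1.59% lower. The medians were 0.09 for the receptors and -0.04 for all genes. Between the control groups 16 of the 29 had an unadjusted p under 0.05, beside 1642 of the 8828 genes. Between the AML1-ETO9a groups 7 of the 29 did, beside 1118 genes. The 29 tested genes are those that passed the filter, so they do not stand for all 41.

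Groups that did not overlap were more frequent than calls. With AML1-ETO9a against control in wild-type cells 5 receptors lay wholly above and 3 wholly below, beside 12.5% of all genes in either direction. In Booreana cells 5 lay above and 1 below, beside 7.22% of all genes. Booreana control cells had 6 receptors wholly above and 5 wholly below wild-type control cells, beside 12.6% of all genes, and Booreana cells with AML1-ETO9a had 5 above and none below wild-type cells with AML1-ETO9a, beside 10% of all genes. The comparisons share groups, so their counts are not independent of each other.

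**Figure D2:**
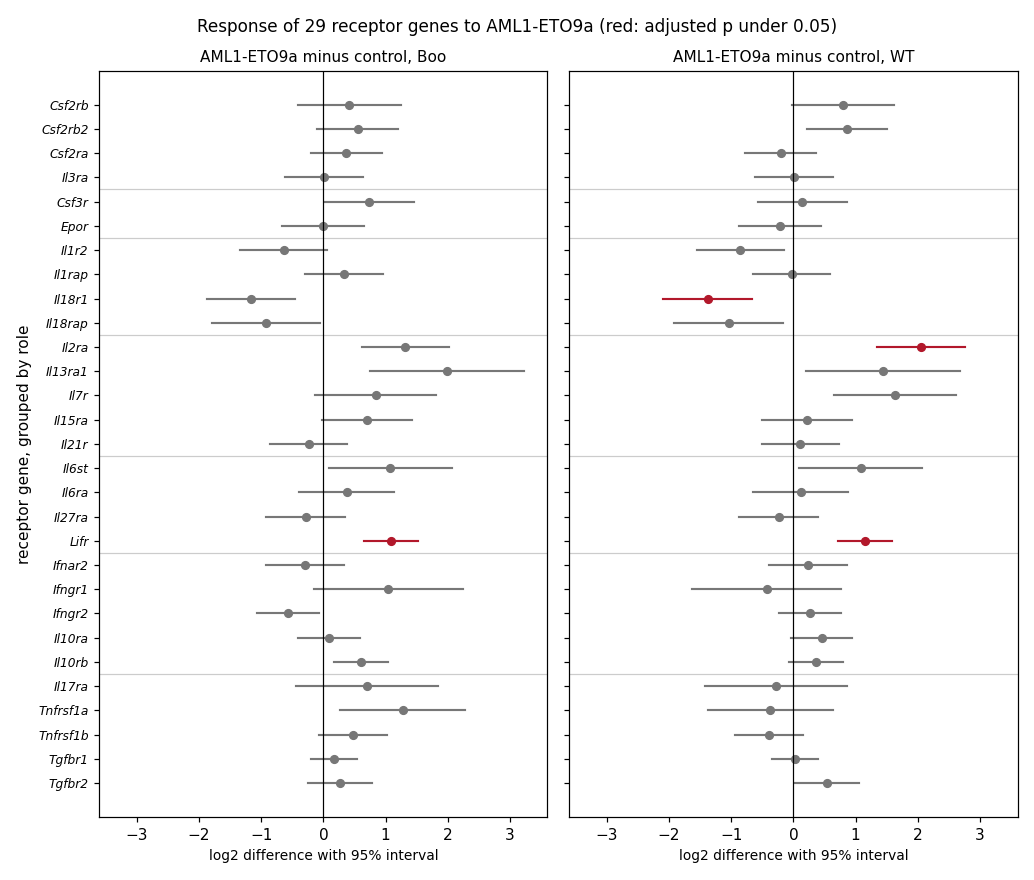
Log2 difference between AML1-ETO9a and control cells (x axis, point and 95% interval) for the 29 tested receptor genes (y axis, grouped by role), in Booreana cells on the left and wild-type cells on the right. Red marks an adjusted p under 0.05: Lifr in Booreana cells, and Il18r1, Il2ra and Lifr in wild-type cells.

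Arrays with the same replicate number within a genotype deviated together, so the AML1-ETO9a response was also fitted with that number as a block. The block raised the count of receptors called to 8 in wild-type cells, 6 higher and 2 lower, beside 8.46% of all genes, and to 4 in Booreana cells, 3 higher and 1 lower, beside 4.01% of all genes. The receptors added were Csf2rb2, Il18rap, Il13ra1, Il7r and Tgfbr2 in wild-type cells and Il18r1, Il13ra1 and Il7r in Booreana cells. Without Booreana control replicate 2 and its partner, a setting chosen after seeing the data, the blocked fit called 10 receptors in wild-type cells, beside 12.9% of all genes, and in Booreana cells 2, Il7r and Il13ra1, beside 4.22% of all genes. Il7r, Il13ra1, Il18rap and Tgfbr2 are described because of the block, after their values were seen. The block uses the same pairs, so the agreement of their pairs is not separate support.

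The common gamma chain receptors and their relatives held the largest difference called with AML1-ETO9a. Il2ra encodes the IL-2 receptor alpha chain (CD25), which raises the affinity of the receptor for IL-2. Its level was 8.10, 8.04, 7.56 and 7.84 on Booreana AML1-ETO9a arrays, against 6.53, 6.29, 6.26 and 7.18 on Booreana control arrays. It was 7.78, 5.97, 7.23 and 7.69 on wild-type AML1-ETO9a arrays, against 4.98, 5.26, 5.32 and 4.90 on wild-type control arrays. In both genotypes every AML1-ETO9a array lay above every control array, and Il2ra was detected on no wild-type control array. The rise in wild-type cells was 2.05 ± 0.33 (limma, adjusted p = 0.00146), at least 2.72-fold. The difference in Booreana cells was 1.32 ± 0.33 (adjusted p = 0.0602), and it was called without Booreana control replicate 4 or without wild-type AML1-ETO9a replicate 2 (adjusted p as low as 0.00697). Booreana control cells were higher than wild-type control cells by 1.45 ± 0.33 (adjusted p = 0.0128), at least 1.79-fold, and with AML1-ETO9a the difference between the genotypes was 0.72 ± 0.33 (adjusted p = 0.409). In bulk RNA a higher level in each cell and more cells of a kind that express the gene cannot be told apart.

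Il7r, the IL-7 receptor alpha chain used by lymphoid progenitors and T cells, had 7.96, 8.91, 7.77 and 9.62 on Booreana AML1-ETO9a arrays, against 6.48, 8.38, 7.22 and 8.83 on Booreana control arrays. In wild-type cells it had 8.59, 8.44, 8.11 and 8.61 with AML1-ETO9a, against 6.85, 6.91, 6.38 and 7.07 with the control vector. The wild-type groups did not overlap and the Booreana groups did. Without the block neither difference was called: 0.84 ± 0.46 in Booreana cells (adjusted p = 0.502) and 1.64 ± 0.46 in wild-type cells (adjusted p = 0.0583). With the block the adjusted p was 0.0365 in Booreana cells and 0.000643 in wild-type cells. Within same-numbered arrays the difference was positive in 4 of 4 Booreana pairs, from 0.54 to 1.48, and in 4 of 4 wild-type pairs, from 1.53 to 1.74. Without replicate 2 of the Booreana control group, and with no block, the wild-type difference was 1.62 and was called (adjusted p = 0.0410).

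Il13ra1, a chain of the IL-13 receptor and of one form of the IL-4 receptor, was likewise called with the block and not without it. It had 8.93, 8.14, 9.02 and 9.96 on Booreana AML1-ETO9a arrays, against 7.75, 5.22, 6.93 and 8.19 on Booreana control arrays. Wild-type cells had 8.13, 9.77, 9.53 and 10.04 with AML1-ETO9a, against 7.19, 8.43, 7.71 and 8.36 with the control vector. The groups overlapped in both genotypes, and the arrays of a group were spread widely. Within same-numbered pairs the difference was positive in 4 of 4 pairs of each genotype, from 1.18 to 2.92 in Booreana cells and from 0.94 to 1.82 in wild-type cells. The difference was 1.99 in Booreana cells (adjusted p = 0.117 without and 0.00444 with the block) and 1.44 in wild-type cells (adjusted p = 0.253 without and 0.00986 with the block). The lowest value, 5.22, was on replicate 2 of the Booreana control group, and without that array the Booreana difference with no block was 1.37 ± 0.48 (adjusted p = 0.230).

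Il15ra, which presents IL-15 to neighbouring cells, and Il21r, the IL-21 receptor chain, were called in no comparison. Il15ra was detected on 1 of 4 Booreana control arrays and on all 4 arrays of each other group, and its Booreana minus wild-type difference in control cells was -0.79 ± 0.34 (adjusted p = 0.234). A dimmer Il15ra probe gave -0.24 ± 0.24 there. With AML1-ETO9a in wild-type cells that probe gave 0.78 ± 0.24 without overlap (adjusted p = 0.0865), against 0.21 ± 0.34 for the brightest. Il21r was detected on 1 Booreana AML1-ETO9a array, 2 Booreana control arrays and 1 wild-type AML1-ETO9a array. Il2rb and Il9r, the beta chain for IL-2 and IL-15 and the IL-9 receptor, were detected on no array and were not tested. Il2rg (the common gamma chain itself), Il4ra and Crlf2 had no named probe and were not analysed here.

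**Figure D3:**
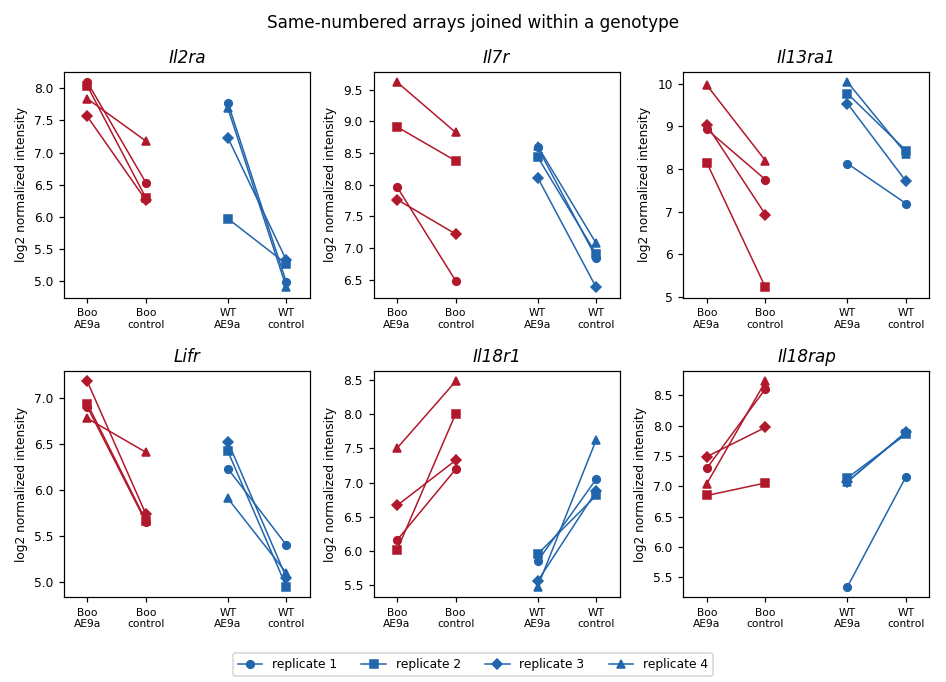
Log2 normalized intensity (y axis) of 6 receptor genes in AML1-ETO9a (AE9a) and control cells (x axis) of Booreana mice (Boo, red) and wild-type mice (WT, blue), with same-numbered arrays of a genotype joined by lines. Every line slopes the same way within a panel: Il2ra, Il7r, Il13ra1 and Lifr were higher, and Il18r1 and Il18rap lower, with AML1-ETO9a in 4 of 4 pairs of each genotype. Tgfbr2 and Il10rb, not shown, were also higher in 4 of 4 pairs of each genotype. The share of all genes with such pairs is not given here.

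In the IL-1 receptor family Il18r1 fell with AML1-ETO9a in wild-type cells, and both chains of the IL-18 receptor were lower in every same-numbered pair of each genotype. Il18r1, the chain that binds IL-18, had 6.16, 6.02, 6.67 and 7.50 on Booreana AML1-ETO9a arrays, against 7.19, 8.00, 7.33 and 8.48 on Booreana control arrays. In wild-type cells it had 5.85, 5.96, 5.56 and 5.48 with AML1-ETO9a, against 7.05, 6.81, 6.88 and 7.62 with the control vector. The wild-type groups did not overlap, with 2 of the 4 AML1-ETO9a arrays below detection. The Booreana groups overlapped through replicate 4 of the AML1-ETO9a group. Il18r1 fell by 1.38 in wild-type cells with AML1-ETO9a (difference -1.38 ± 0.33, adjusted p = 0.0258, or 0.0105 with the block). The call in wild-type cells was lost when any 1 of 5 arrays was left out, namely wild-type AML1-ETO9a replicates 3 and 4 and wild-type control replicates 1, 3 and 4, with an adjusted p of up to 0.0909. In Booreana cells the difference was -1.16 (adjusted p = 0.111 without and 0.0400 with the block). The blocked call was lost without Booreana control replicate 2 and its partner, the Booreana pair with the largest difference (-0.88 ± 0.23, adjusted p = 0.0770). Without Booreana AML1-ETO9a replicate 4 the difference was called with no block (adjusted p = 0.0289).

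Il18rap, the second chain of the IL-18 receptor and the direct neighbour of Il18r1 in the genome with no gene between them, had 7.30, 6.85, 7.49 and 7.05 on Booreana AML1-ETO9a arrays, against 8.61, 7.05, 7.97 and 8.73 on Booreana control arrays. Wild-type cells had 5.34, 7.14, 7.08 and 7.08 with AML1-ETO9a, against 7.16, 7.86, 7.89 and 7.90 with the control vector. The wild-type groups just failed to overlap, at 7.14 and 7.16. The difference was -0.92 ± 0.41 in Booreana cells (adjusted p = 0.369) and -1.04 in wild-type cells (adjusted p = 0.231 without and 0.0494 with the block). Without Booreana control replicate 2 the Booreana difference was -1.25 ± 0.38. The differences within pairs ran from -1.69 to -0.21 in Booreana cells and from -1.82 to -0.72 in wild-type cells.

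Il1r2, the decoy receptor for IL-1, had levels between 9.83 and 11.57 and was called in no comparison. Its AML1-ETO9a minus control difference was -0.64 ± 0.33 in Booreana cells (adjusted p = 0.462) and -0.85 ± 0.33 in wild-type cells (adjusted p = 0.223), where the groups did not overlap. Il1rap, the accessory chain shared by several IL-1 family receptors, differed by 0.33 ± 0.29 in Booreana cells and -0.03 ± 0.29 in wild-type cells. The Booreana value rested on control replicate 2, and without that array it was near 0, at -0.000687 ± 0.22. Other tested Il1rap probes gave -0.07 ± 0.28, -0.37 ± 0.42 and -0.60 ± 0.40 in wild-type cells. In Booreana cells they gave -0.07 ± 0.28, 0.51 ± 0.42 and 0.53 ± 0.40, and none was called. Il1r1, the signalling IL-1 receptor, was detected on 3 arrays, all of the Booreana control group, and was not tested. Il1rl1, the IL-33 receptor, had no named probe and was not analysed here.

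Beside the IL-18 receptor chains, the summed intensity of 4 basophil markers was also lower with AML1-ETO9a, at 1597 to 5358 in Booreana cells against 5749 to 24200 in Booreana control cells, and at 1034 to 2213 in wild-type cells against 3955 to 13660 in wild-type control cells. In that list Mcpt8 and Prss34, proteases of basophils, fell in both genotypes, 2 of 4 markers tested. Of 5 tested eosinophil markers 1 fell in Booreana cells and 4 in wild-type cells. The sum of 7 eosinophil markers was 11971 to 26746 in Booreana AML1-ETO9a cells against 29887 to 45607 in Booreana control cells, and 4208 to 9728 in wild-type AML1-ETO9a cells against 17405 to 37676 in wild-type control cells. The 9 T and NK cell markers summed to 557 to 574 in Booreana AML1-ETO9a cells against 1098 to 2732 in Booreana control cells, and to 649 to 1226 in wild-type AML1-ETO9a cells against 2342 to 4262 in wild-type control cells. In that list Nkg7, a granule protein of cytotoxic cells, fell in both genotypes, 1 of 2 markers tested. The rest of the 9 were too dim to be tested, and Cd3e, Cd8a and Ncr1 were detected on no array. The part of these cell types in the IL-18 receptor result was not tested.

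In the gp130 group Lifr rose with AML1-ETO9a in both genotypes. Lifr encodes the LIF receptor chain, which pairs with gp130 to bind LIF. It had 6.90, 6.94, 7.18 and 6.78 on Booreana AML1-ETO9a arrays, against 5.65, 5.66, 5.74 and 6.41 on Booreana control arrays. In wild-type cells it had 6.23, 6.42, 6.52 and 5.91 with AML1-ETO9a, against 5.40, 4.94, 5.04 and 5.09 with the control vector. Neither genotype's groups overlapped, and Lifr was detected on all 8 AML1-ETO9a arrays, 3 of 4 Booreana control arrays and no wild-type control array. The rise was 1.09 ± 0.20 in Booreana cells, 2.12-fold (adjusted p = 0.00938, or 0.0261 with the block and 0.0508 with the block and without Booreana control replicate 2 and its partner), and 1.15 ± 0.20 in wild-type cells, at least 1.46-fold (adjusted p = 0.00281, or 0.0105 with the block). Booreana control cells were higher than wild-type control cells by 0.74 ± 0.20 (adjusted p = 0.0372), at least 1.10-fold. That call between the genotypes was lost when any 1 of 6 arrays was left out (Booreana AML1-ETO9a replicate 1, Booreana control replicates 3 and 4, and wild-type control replicates 2, 3 and 4), with an adjusted p of up to 0.115. With AML1-ETO9a in both genotypes the difference was 0.68 ± 0.20 (adjusted p = 0.0892), and it was called without Booreana control replicate 4 (adjusted p = 0.0367). Lifr lies near the lower end of what the array detects, and its 2 other probes were too dim to be tested.

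Il27ra, the ligand-specific chain of the IL-27 receptor, had 8.84, 8.25, 8.27 and 8.48 on Booreana AML1-ETO9a arrays, against 7.34, 7.03, 6.78 and 6.16 on wild-type AML1-ETO9a arrays. It had 8.84, 9.35, 8.89 and 7.91 on Booreana control arrays, against 7.29, 7.32, 6.85 and 6.80 on wild-type control arrays. All 8 Booreana arrays lay above all 8 wild-type arrays. Il27ra was higher in Booreana cells by 1.68 ± 0.30 with the control vector, 3.20-fold (adjusted p = 0.00199), and by 1.63 ± 0.30 with AML1-ETO9a, 3.10-fold (adjusted p = 0.00458). Without Booreana control replicate 2 the difference with the control vector was 1.46 ± 0.29. The AML1-ETO9a minus control difference was -0.29 ± 0.30 in Booreana cells (adjusted p = 0.723), or -0.08 ± 0.29 without Booreana control replicate 2, and -0.24 ± 0.30 in wild-type cells (adjusted p = 0.897). A dimmer probe for Il27ra gave 1.56 ± 0.37 between the genotypes with AML1-ETO9a (adjusted p = 0.0273) and 0.20 ± 0.37 with the control vector (adjusted p = 0.833). Its AML1-ETO9a minus control difference was 0.89 ± 0.37 in Booreana cells (adjusted p = 0.331) and -0.46 ± 0.37 in wild-type cells (adjusted p = 0.770). The probes thus disagree on the Booreana control cells and on the response of Booreana cells, where the values have opposite signs and neither was called.

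IL-6 was in the medium, and its receptor is made of Il6ra, the chain that binds IL-6, and gp130 (Il6st). Il6st had 5.67, 7.30, 6.27 and 6.48 on Booreana AML1-ETO9a arrays, against 4.83, 6.30, 5.17 and 5.12 on Booreana control arrays. Wild-type cells had 6.89, 6.91, 6.41 and 4.82 with AML1-ETO9a, against 5.89, 4.84, 5.01 and 4.96 with the control vector. The groups overlapped in both genotypes: the lowest wild-type AML1-ETO9a array, replicate 4, was as low as the control arrays. The difference was 1.07 ± 0.47 in Booreana cells (adjusted p = 0.354) and 1.08 ± 0.47 in wild-type cells (adjusted p = 0.303). Without Booreana control replicate 2 the Booreana difference was 1.41 ± 0.46. Without wild-type AML1-ETO9a replicate 4 the wild-type difference was called (adjusted p = 0.0441).

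Il6ra had 5.40, 6.24, 6.42 and 5.92 on Booreana AML1-ETO9a arrays, against 5.91, 5.24, 5.66 and 5.64 on Booreana control arrays. Wild-type cells had 5.20, 6.85, 6.77 and 6.28 with AML1-ETO9a, against 6.37, 6.53, 5.31 and 6.42 with the control vector. These values overlapped throughout, and no Il6ra difference was called, the AML1-ETO9a differences being 0.38 ± 0.36 in Booreana cells and 0.12 ± 0.36 in wild-type cells. Osmr, the chain that joins gp130 to bind oncostatin M, was detected on 1 array and not tested, and Il11ra1, the IL-11 receptor chain, had no named probe and was not analysed here.

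**Figure D4:**
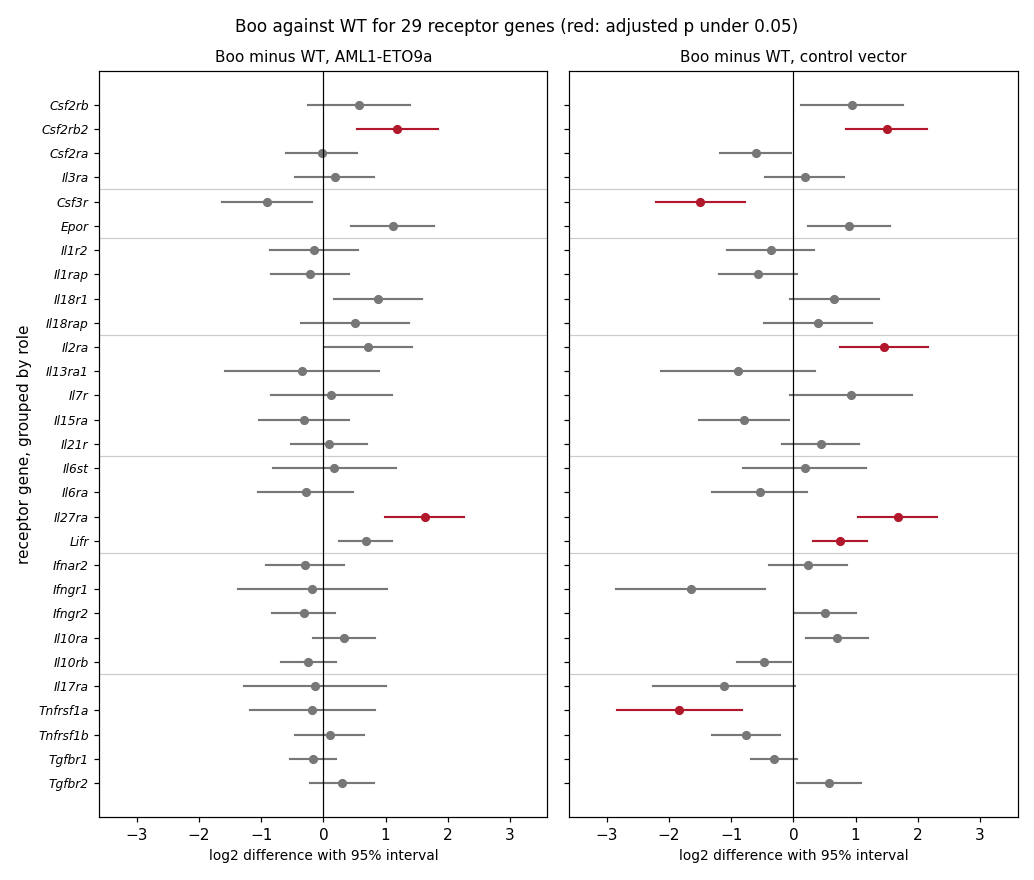
Log2 difference between Booreana and wild-type cells (x axis, point and 95% interval) for the 29 tested receptor genes (y axis, grouped by role), with AML1-ETO9a on the left and the control vector on the right. Red marks an adjusted p under 0.05: Csf2rb2 and Il27ra on the left, and Csf2rb2, Csf3r, Il2ra, Il27ra, Lifr and Tnfrsf1a on the right.

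Among the shared beta chains, Csf2rb2 was higher in Booreana cells. Csf2rb2 encodes a second beta chain found in mice that serves the IL-3 receptor, beside the common beta chain of Csf2rb, which serves IL-3, GM-CSF and IL-5. Csf2rb2 had 12.79, 12.79, 12.18 and 13.16 on Booreana AML1-ETO9a arrays, against 11.70, 11.22, 11.99 and 11.25 on wild-type AML1-ETO9a arrays. It had 12.08, 11.67, 11.76 and 13.19 on Booreana control arrays, against 10.66, 10.88, 10.57 and 10.60 on wild-type control arrays. The genotypes did not overlap with either vector. Booreana cells were higher by 1.50 ± 0.31 with the control vector, 2.83-fold (adjusted p = 0.00568), and by 1.19 ± 0.31 with AML1-ETO9a, 2.28-fold (adjusted p = 0.0403). The call with AML1-ETO9a was lost when any 1 of 11 arrays was left out (all but Booreana AML1-ETO9a replicate 3, Booreana control replicates 2, 3 and 4 and wild-type AML1-ETO9a replicate 3), with an adjusted p of up to 0.138. The AML1-ETO9a minus control difference was 0.55 ± 0.31 in Booreana cells (adjusted p = 0.506) and 0.86 in wild-type cells (adjusted p = 0.163 without and 0.0499 with the block), and the wild-type groups did not overlap. Without Booreana control replicate 4 the wild-type difference was called with no block (adjusted p = 0.0430).

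Csf2rb, the direct neighbour of Csf2rb2 with no gene between them, was called in no comparison with all arrays, with or without the block. It had 10.69, 11.58, 10.34 and 10.73 on Booreana AML1-ETO9a arrays, against 10.49, 10.53, 9.65 and 10.99 on Booreana control arrays. Wild-type cells had 11.11, 10.12, 10.14 and 9.68 with AML1-ETO9a, against 10.26, 9.67, 9.22 and 8.73 with the control vector. The groups of this probe overlapped in every comparison. Booreana control cells differed from wild-type control cells by 0.94 ± 0.39 (adjusted p = 0.204), and its 2 other probes gave -0.68 ± 0.83 and 0.09 ± 0.25. With AML1-ETO9a against control the probes disagreed, and none was called. In Booreana cells the other 2 gave 1.98 ± 0.83 and 0.70 ± 0.25, against 0.42 ± 0.39. In wild-type cells they gave -0.32 ± 0.83 and -0.04 ± 0.25, against 0.79 ± 0.39. The blocked fit without Booreana control replicate 2 and its partner called the wild-type difference of the first probe (adjusted p = 0.0178). Csf2rb and Csf2rb2 are close copies of each other, and the files do not say whether a probe for one also binds RNA of the other.

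Il3ra, the alpha chain that gives the IL-3 receptor its specificity, had 8.15, 8.68, 8.22 and 8.94 on Booreana AML1-ETO9a arrays, against 8.44, 8.02, 8.22 and 9.27 on Booreana control arrays. Wild-type cells had 8.74, 7.65, 8.42 and 8.46 with AML1-ETO9a, against 8.73, 8.01, 8.12 and 8.36 with the control vector. These values overlapped throughout. The AML1-ETO9a difference was 0.01 ± 0.30 in both genotypes, with a 95% interval of -0.62 to 0.64 in each, and without Booreana control replicate 2 it was -0.15 ± 0.30 in Booreana cells. Csf2ra, the GM-CSF receptor alpha chain, had an interval of -0.20 to 0.94 for that difference in Booreana cells and -0.78 to 0.36 in wild-type cells, and was called in no comparison.

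Of the single-chain growth factor receptors, Csf3r was lower in Booreana control cells than in wild-type control cells. Csf3r encodes the G-CSF receptor, which drives the formation of neutrophils. It had 8.50, 9.27, 8.83 and 8.42 on Booreana AML1-ETO9a arrays, against 9.95, 9.66, 10.08 and 8.95 on wild-type AML1-ETO9a arrays. It had 7.60, 7.62, 9.07 and 7.78 on Booreana control arrays, against 10.05, 9.32, 9.32 and 9.37 on wild-type control arrays. The control groups did not overlap, and Booreana replicate 3 lay closest to the wild-type arrays. The difference was -1.50 ± 0.34 with the control vector, or 2.82-fold lower (adjusted p = 0.0121), and -0.90 ± 0.34 with AML1-ETO9a (adjusted p = 0.232). One more Csf3r probe, detected on every array, was called in both comparisons, at -1.64 ± 0.29 with the control vector (adjusted p = 0.00163) and -1.27 ± 0.29 with AML1-ETO9a (adjusted p = 0.0185). Another, dimmer probe differed by -0.16 ± 0.20 and -0.52 ± 0.20 and was not called. With AML1-ETO9a against control Csf3r differed by 0.74 ± 0.34 in Booreana cells (adjusted p = 0.391) and 0.15 ± 0.34 in wild-type cells (adjusted p = 0.958). The other bright probe gave 0.92 ± 0.29 (adjusted p = 0.143), without overlap, and 0.55 ± 0.29. The dimmer probe gave -0.05 ± 0.20 and 0.32 ± 0.20, and none was called. Without Booreana control replicate 2 the brightest probe gave 0.60 ± 0.35 in Booreana cells.

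Beside Csf3r, the summed intensity of 14 neutrophil markers was 124348 to 266197 in Booreana control cells against 456447 to 475117 in wild-type control cells, without overlap. Of these 14 genes 4 were called lower in Booreana control cells and none higher. Elane, Prtn3 and Ctsg, proteases of the granules of neutrophil precursors, differed there by -6.27 ± 0.25, -3.66 ± 0.23 and -3.36 ± 0.24, and the fourth, named after its values were seen, was Mpo, the myeloperoxidase of the same granules. In wild-type cells with AML1-ETO9a the same sum was 201649 to 307624, also below wild-type control cells, while Csf3r differed there by 0.15 ± 0.34. The part of neutrophils and their precursors in the Csf3r result was not tested.

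Epor, the erythropoietin receptor, was detected on all 8 Booreana arrays, on 1 wild-type AML1-ETO9a array and on 1 wild-type control array. Booreana cells differed from wild-type cells by 0.90 ± 0.31 with the control vector (adjusted p = 0.117) and by 1.11 ± 0.31 with AML1-ETO9a (adjusted p = 0.0641). Without Booreana control replicate 2 the difference with the control vector was 0.66 ± 0.30. The difference with AML1-ETO9a was called with the replicate number as a random block over all arrays (adjusted p = 0.0492), although the numbers do not pair the genotypes. With no block it was called without Booreana control replicate 2 (1.13, adjusted p = 0.0251). The summed intensity of 7 erythroid markers was 9345 to 16406 in Booreana AML1-ETO9a cells against 5518 to 7388 in wild-type AML1-ETO9a cells, and their part in the Epor values was not tested. Flt3, the receptor for FLT3 ligand on early progenitors, was detected on no array and not tested. Csf1r, the M-CSF receptor of monocytes, had no named probe and was not analysed here.

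The higher Booreana levels of Csf2rb2 and Il27ra stood beside differences in several marker lists. All 5 tested dendritic cell markers rose in Booreana control cells and 4 of 5 in Booreana AML1-ETO9a cells, with H2-Eb1, a class II antigen-presentation gene, higher by 2.07 ± 0.32 and 1.58 ± 0.32. The summed dendritic cell markers were 16981 to 40765 in Booreana against 10524 to 13981 in wild-type cells with AML1-ETO9a, and 21286 to 42865 in Booreana against 7802 to 9583 in wild-type cells with the control vector. Itgax, which encodes CD11c, was detected on no array. Of 8 tested mast cell markers 3 were called higher in Booreana cells with either vector. The median difference of the 8 was 0.0749 with the control vector, so the list was not higher as a whole there. With AML1-ETO9a their median was larger. Mast cell markers summed to 46076 to 91313 in Booreana against 22422 to 41075 in wild-type cells with AML1-ETO9a, and to 21968 to 37971 against 9452 to 21808 with the control vector, with Mcpt4 and Mrgprb1 detected on no array. Of 6 tested early progenitor markers 3 were higher in Booreana cells with AML1-ETO9a and 2 with the control vector. Early progenitor markers summed to 4202 to 5945 in Booreana against 1167 to 1732 in wild-type cells with AML1-ETO9a, and to 2291 to 3611 against 614 to 848 with the control vector. Megakaryocyte markers summed to 3739 to 7694 in Booreana against 785 to 2177 in wild-type cells with the control vector, where 2 of 7 were called higher, and overlapped with AML1-ETO9a, where 1 of 7 was. Pf4 and Itga2b, genes of platelets and their precursors, were the 2, higher by 1.90 ± 0.42 and 2.83 ± 0.45. Of 4 basophil markers 2 were called higher in Booreana cells with either vector. The part of these cell types in the receptor results was not tested.

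**Figure D5:**
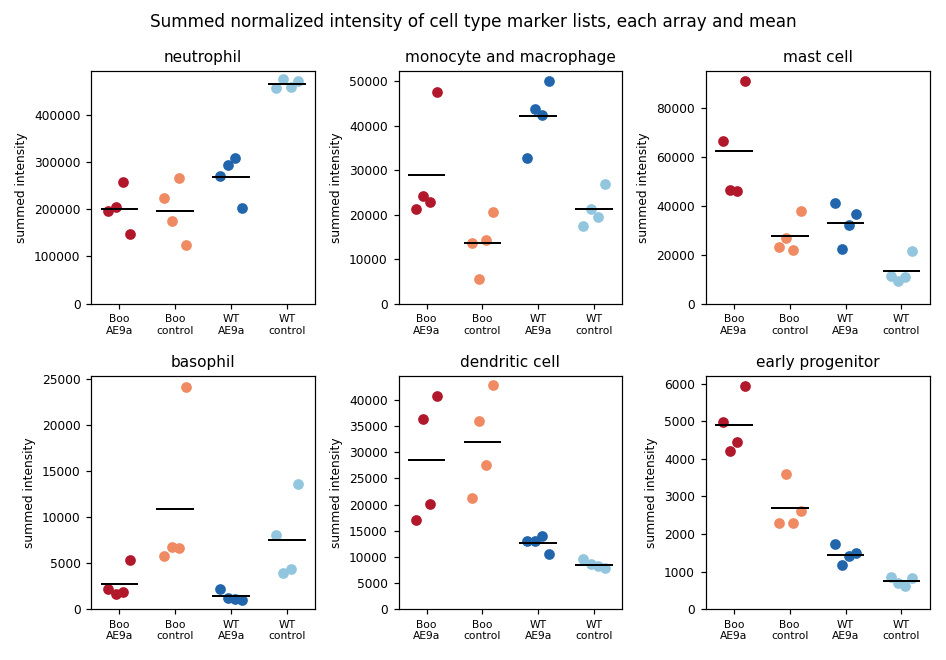
Summed normalized intensity (y axis) of 6 cell type marker lists by group (x axis: Booreana, Boo, and wild-type, WT, cells with AML1-ETO9a, AE9a, or control vector). Points are arrays and bars are means of 4. Neutrophil markers are highest in wild-type control cells, and basophil markers are lower with AML1-ETO9a in each genotype.

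The summed early progenitor and mast cell markers of AML1-ETO9a cells lay wholly above those of control cells in each genotype, and so did monocyte and macrophage markers. In Booreana cells 3 of 6 early progenitor, 3 of 8 mast cell and 1 of 8 monocyte and macrophage markers rose with AML1-ETO9a, and in wild-type cells 1 of 6, 2 of 8 and 3 of 8. Monocyte and macrophage markers summed to 21320 to 47455 in Booreana AML1-ETO9a cells against 5570 to 20646 in Booreana control cells, and to 32643 to 50090 in wild-type AML1-ETO9a cells against 17539 to 26908 in wild-type control cells. The 5570 was on Booreana control replicate 2, and the rest of that group had 13651 to 20646. Adgre1, the F4/80 antigen of macrophages, rose in both genotypes, by 0.85 ± 0.17 in Booreana cells and 1.66 ± 0.17 in wild-type cells. Ms4a6c, C1qa and Ccr2 of that list were detected on no array. Megakaryocyte markers lay wholly above control in wild-type cells, at 3278 to 7604 with AML1-ETO9a against 785 to 2177 with the control vector. Of 7 tested there, 2 rose, Pf4 by 2.26 ± 0.42 and Ppbp, a platelet chemokine gene, by 4.32 ± 0.85. The median difference of the 7 was -0.27, so the list did not rise as a whole. In Booreana cells none of the 7 was called in limma, with an unadjusted p under 0.05 for 3, and the sums overlapped.

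Stroma and endothelium markers lay wholly above control in Booreana cells, at 4039 to 4358 with AML1-ETO9a against 408 to 2892 with the control vector. The 408 was on Booreana control replicate 2, and the rest of that group had 2088 to 2892. Of 2 tested there 1 rose, Sparc, a matrix protein gene detected on no Booreana control array, at least 2.47-fold (adjusted p = 0.0143), and in wild-type cells the sums overlapped. Neutrophil and erythroid markers lay wholly below control in wild-type cells with AML1-ETO9a. Neutrophil markers summed to 201649 to 307624 with AML1-ETO9a against 456447 to 475117 with the control vector, and 3 of 14 fell, Elane by 2.27 (difference -2.27 ± 0.25), Prtn3 by 1.44 (difference -1.44 ± 0.23) and Cebpe, a transcription factor of granulocyte precursors, by 1.34 (difference -1.34 ± 0.22). Erythroid markers summed to 5518 to 7388 with AML1-ETO9a against 9318 to 13482 with the control vector, and 1 of 4 fell, Tfrc, the transferrin receptor gene. The median difference of the 4 tested erythroid markers was -0.11, so that list did not fall as a whole. In Booreana cells the sums of both lists overlapped. Of the 14 neutrophil markers 2 were called lower there in limma and 0 higher, with an unadjusted p under 0.05 for 6. Of the 4 tested erythroid markers 0 were called there, with an unadjusted p under 0.05 for 2. The part of all these cells in the Il2ra, Lifr, Il7r and Il13ra1 values was not tested.

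Among the TNF receptors, Tnfrsf1a was lower in Booreana control cells than in wild-type control cells. Tnfrsf1a encodes TNF receptor 1, which can signal through NF-kappaB or lead to cell death. It had 8.33, 8.61, 8.14 and 8.74 on Booreana AML1-ETO9a arrays, against 8.07, 9.14, 8.62 and 8.71 on wild-type AML1-ETO9a arrays. It had 7.74, 5.16, 7.75 and 8.08 on Booreana control arrays, against 9.05, 9.27, 8.88 and 8.84 on wild-type control arrays. The control groups did not overlap, and replicate 2 of the Booreana control group, the array that stood apart, was far below the others and not detected. The difference was -1.83 ± 0.47 (adjusted p = 0.0275), and without that array -1.14 ± 0.23 (adjusted p = 0.00578). Leaving out any 1 wild-type control array ended the call, with an adjusted p of up to 0.0845. Both other probes were called too, at -1.72 ± 0.40 (adjusted p = 0.0142) and -1.70 ± 0.47 (adjusted p = 0.0424). With AML1-ETO9a the difference between the genotypes was -0.18 ± 0.47 (adjusted p = 0.976).

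Tnfrsf1b, TNF receptor 2, differed between Booreana and wild-type control cells by -0.76 ± 0.26 (adjusted p = 0.109), without overlap, and was detected on 1 of 4 Booreana control arrays and all 4 wild-type control arrays. Il17ra, the IL-17 receptor chain, had 8.58, 5.19, 7.60 and 7.05 on Booreana control arrays, and its difference from wild-type control cells was -1.11 ± 0.54, or -0.46 ± 0.38 without replicate 2. Tgfbr1 and Tgfbr2, the type I and type II kinases of the TGF-beta receptor, lay between 10.08 and 10.87 (Tgfbr1) and between 9.21 and 10.95 (Tgfbr2) on all arrays. The group with the lowest Tgfbr2 mean was wild-type control cells, at 9.97 ± 0.51 (SD, n = 4). Tgfbr2 differed by 0.27 ± 0.24 with AML1-ETO9a in Booreana cells (adjusted p = 0.682) and by 0.55 in wild-type cells (adjusted p = 0.328 without and 0.0306 with the block), where its other probe gave 0.23 ± 0.21. Tgfbr1 had a 95% interval of -0.20 to 0.54 for the AML1-ETO9a difference in Booreana cells and of -0.34 to 0.40 in wild-type cells.

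No interferon or IL-10 receptor was called in limma in any comparison. Between Booreana and wild-type control cells 4 of 5 had an unadjusted p under 0.05, beside 1642 of all 8828 genes. Ifngr1, the chain that binds interferon gamma, had 9.57, 6.46, 9.86 and 10.01 on Booreana control arrays, against 10.42, 10.74, 10.76 and 10.59 on wild-type control arrays. The groups did not overlap and replicate 2 was again far below the rest. The difference was -1.65 ± 0.57 (adjusted p = 0.113), or -0.81 ± 0.23 without that array (adjusted p = 0.0542). Ifngr2, its partner chain, differed by -0.56 ± 0.24 with AML1-ETO9a in Booreana cells (adjusted p = 0.331), without overlap, while its other probes gave -0.51 ± 0.29 and 0.12 ± 0.32. Il10ra and Il10rb, the chains of the IL-10 receptor, and Ifnar2, a chain of the type I interferon receptor, had AML1-ETO9a differences between -0.29 and 0.60, the lowest being Ifnar2 in Booreana cells, which was -0.06 ± 0.28 without Booreana control replicate 2. Other Ifnar2 probes gave -0.66 ± 0.38 and -0.14 ± 0.46 with AML1-ETO9a in wild-type cells, against 0.24 for the brightest. In Booreana cells they gave -0.10 ± 0.38 and -0.14 ± 0.46. Ifnar1, the other chain of the type I interferon receptor, was detected on no array and not tested.

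The responses of the genotypes to AML1-ETO9a were compared directly, as the Booreana response minus the wild-type response. No receptor of the 29 was called in limma, beside 0.0906% of all genes (8 of 8828). An unadjusted p was under 0.05 for 3 receptors, beside 630 of the 8828 genes. These 3, named after their values were seen, were Tnfrsf1a with 1.65 ± 0.67 (adjusted p = 0.652), Tnfrsf1b with 0.86 ± 0.36 (adjusted p = 0.676) and Ifngr2 with -0.83 ± 0.33 (adjusted p = 0.647). Without Booreana control replicate 2 the Tnfrsf1a value was 0.96 ± 0.31 (adjusted p = 0.482), and its other probes gave 1.53 ± 0.56 and 1.51 ± 0.67 with all arrays. The probes of the other two disagreed, with 0.31 ± 0.39 from a second Tnfrsf1b probe and -0.25 ± 0.41 and 0.34 ± 0.45 from the other Ifngr2 probes. The dimmer Il27ra probe gave 1.36 ± 0.53 (adjusted p = 0.621), against -0.05 for the probe shown above. The difference of responses was -0.73 for Il2ra, with a 95% interval of -1.73 to 0.26. It was -0.07 for Lifr, with an interval of -0.67 to 0.54, and 0.21 for Il18r1, with an interval of -0.79 to 1.22. A p-value that misses the threshold does not show that the genotypes responded alike.

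Genes that act with the receptors were followed in lists chosen by function, to be read beside the shares of all genes called: 4.93% with AML1-ETO9a in wild-type cells and 2% in Booreana cells, and 7.39% between the genotypes with the control vector and 4.21% with AML1-ETO9a. Of 9 tested JAK and STAT genes none was called in limma in any of the 5 comparisons, with an unadjusted p under 0.05 for 2 of them between the Booreana groups, for 1 in each comparison of the genotypes, and for none in wild-type cells. Of 20 tested genes for feedback proteins and phosphatases, 2 rose with AML1-ETO9a in wild-type cells, beside 2.88% of all genes higher: Socs3, an inhibitor of gp130 and G-CSF receptor signalling, by 1.05 ± 0.18 (adjusted p = 0.00192), and Socs2, an inhibitor of growth hormone signalling, by 0.79 ± 0.19 (adjusted p = 0.0256). None of the 20 was called in Booreana cells with AML1-ETO9a, where 1 had an unadjusted p under 0.05. Socs5 and Dok2, the second an adaptor that dampens receptor signals, were higher in Booreana cells with the control vector, by 1.25 ± 0.20 and 1.14 ± 0.22, and with AML1-ETO9a, by 1.24 ± 0.20 and 1.03 ± 0.22. The median difference of the 20 genes lay between -0.08 and 0.04 over the 5 comparisons.

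Of 16 tested ligand genes, Il6 was higher in Booreana cells with the control vector, by 2.56 ± 0.31 (adjusted p = 8.53e-05), and with AML1-ETO9a, by 2.82 ± 0.31 (adjusted p = 6.28e-05). Il4 was higher by 3.18 ± 0.41 and 2.49 ± 0.41, and Osm, which encodes oncostatin M, by 1.72 ± 0.24 and 1.20 ± 0.24. With AML1-ETO9a Booreana cells were also higher in Il13, by 1.12 ± 0.25, and lower in Tnf, named after its values were seen, by 1.33 (difference -1.33 ± 0.33, adjusted p = 0.0355). The ligands of Il6ra and of Il13ra1 differed between the genotypes in comparisons where those receptor genes were not called. With AML1-ETO9a against control 1 ligand was called, Il18 in wild-type cells, at least 2.21-fold higher (adjusted p = 0.0284), in the same cells in which Il18r1 was lower.

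Of 14 tested genes of IL-1 and TNF signalling, Irak3, an inhibitor of the IL-1 receptor pathway, fell with AML1-ETO9a in Booreana cells by 1.19 (difference -1.19 ± 0.19, adjusted p = 0.00297), and Traf1, a TNF receptor adaptor, was higher in Booreana control cells by 2.33 ± 0.32 (adjusted p = 0.000246). Irak3 was also lower in Booreana than in wild-type cells with AML1-ETO9a, by 0.77 (difference -0.77 ± 0.19). Of 14 tested TGF-beta signalling genes, Smad6, an inhibitory SMAD, rose with AML1-ETO9a by 1.27 ± 0.23 in Booreana cells (adjusted p = 0.00813) and by 1.62 ± 0.23 in wild-type cells (adjusted p = 0.000527). Eng, a TGF-beta co-receptor, rose in wild-type cells by 1.90 ± 0.50 (adjusted p = 0.0402). Of 11 tested adaptors and kinases 1 was called: the kinase gene Fyn was at least 2.31-fold higher in Booreana than in wild-type cells with AML1-ETO9a (adjusted p = 0.0338).

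Of 14 tested receptor genes outside the 41, Fas, a death receptor of the TNF receptor family, rose with AML1-ETO9a in wild-type cells by 1.18 ± 0.20 (adjusted p = 0.00174). Fas was lower in Booreana than in wild-type cells by 1.07 with the control vector (difference -1.07 ± 0.20) and by 1.45 with AML1-ETO9a (difference -1.45 ± 0.20). Cd40 and Tnfrsf9, costimulatory receptors of the same family, were higher in Booreana cells with the control vector, by 2.19 ± 0.38 and 1.97 ± 0.32, and with AML1-ETO9a, by 1.75 ± 0.38 and 1.52 ± 0.32. The list held 6 calls between the control groups, 4 higher and 2 lower in Booreana cells, beside 7.39% of all genes called, and 3 between the AML1-ETO9a groups, 2 higher and 1 lower, beside 4.21%.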

How the data were processed

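Total RNA of sorted GFP-positive, c-Kit-positive cells was measured on 16 arrays, 4 per group, per the labels. The deposited table gives for each of 25697 probes a summarized bead intensity, not background-corrected, and a detection p-value against the negative controls, per the file headers. A second deposited table holds the authors' processed values, which lie on a log2 scale with equal lowest, median (8.34) and highest values on every array. Per the submitters' processing notes, lumi was used. The genome build and probe annotation used by the authors are not given in the sources used here, and probes were named through the platform annotation (23978 probes with 1 gene symbol, 1719 with none).

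Intensities were corrected with limma's normexp (negative controls inferred from the detection p, offset 16), log2-transformed and quantile-normalized. A probe was kept if 4 or more arrays had a detection p under 0.05 (12760 probes). A limma 3.58.1 model (R 4.3.3) with the 4 group means gave 5 contrasts, with Benjamini-Hochberg adjustment over all kept probes. It was tested on simulated data. The number of arrays limits the precision. No file gives slides or scan dates, so batches were not examined.

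Replicate numbers were checked for pairing. Deviations from the group means of same-numbered arrays correlated at 0.362 to 0.418 between the Booreana groups and at 0.167 to 0.708 between the wild-type groups. Each AML1-ETO9a array matched the control array of its own number best (4 of 4 pairs in each genotype). Control arrays were not checked the other way. The number was therefore used as a block within a genotype, fitted beside the model without it. The labels do not say what a number stands for. The highest correlation between any pair of arrays was 0.9925, and no array was counted as a repeat of another.

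All 41 receptors are accounted for. Every array's value is given for receptors called in any comparison and for receptors of the cytokines in the medium and their relatives, and from each pathway list up to 4 called genes per comparison are named, by adjusted p. Marker genes are named where their list moves with a receptor result, up to 3 per list and comparison, by adjusted p. Exceptions, Mpo and Tnf among them, are marked where they are named. The receptors and the lists were chosen with earlier results of these data known, so no test over a list was made. Summed marker intensities add the normalized linear values of a list's named probes, and Flt3 was left out of them as one of the receptors.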

Additional observations from a re-analysis of the deposited data

Results flagged for a closer look

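In 6 of 44 groups examined (11 named receptors in 4 groups of 4 arrays), the highest or lowest array lay far from the other 3 by Dixon's criterion. Chance gives this in about 1 in 20 groups. Tnfrsf1a was 5.16 on Booreana control replicate 2, against 7.74 to 8.08 on the rest of its group, and this array also stood apart over all probes. Csf3r was 9.07 on Booreana control replicate 3, against 7.60 to 7.78 on the others, and 10.05 on wild-type control replicate 1, against 9.32 to 9.37. Lifr was 6.41 on Booreana control replicate 4, against 5.65 to 5.74. Il6st was 5.89 on wild-type control replicate 1, against 4.84 to 5.01. Il6ra was 5.31 on wild-type control replicate 3, against 6.37 to 6.53. The causes were not tested.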

How the results depend on the processing

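The fits were repeated under 12 other settings and with each of the 16 arrays left out. Of the 12 calls of a named receptor in a comparison, 8 were kept with every array left out, 6 under every other setting and 6 under both, and none reversed. The 3 receptors called in wild-type cells with AML1-ETO9a became 8 with the replicate block, 7 with array weights and 10 with the block and without Booreana control replicate 2 and its partner, a setting chosen after seeing the data, and ranged from 2 to 5 with an array left out (5 without Booreana control replicate 4). The 1 receptor called in Booreana cells with AML1-ETO9a became 4 with the replicate block and with array weights, 3 without normalization between arrays, and 2 without background correction, with offset 50, with median scaling, with the authors' processed values and in the added setting, and ranged from 1 to 2. The 2 receptors called between the genotypes with AML1-ETO9a became 4 with median scaling and with array weights and 1 without the filter on dim probes, and ranged from 1 to 3. The 6 called between the control groups ranged from 4 to 6, and the 0 called for the difference of responses stayed 0. Over all genes the block moved the calls to 747 from 435 in wild-type cells with AML1-ETO9a, to 354 from 177 in Booreana cells, and to 27 from 8 for the difference of responses. Between the genotypes same-numbered arrays correlated at -0.507 to 0.329, so the numbers do not pair them, and the block left 6 and gave 3 receptors called with the control vector and with AML1-ETO9a.

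Il2ra between the control groups lost its call without background correction and with the authors' processed values (adjusted p up to 0.123). Il18r1 in wild-type cells lost it in these settings and without normalization (up to 0.203), and Lifr between the control groups in 6 settings (up to 0.170). Csf2rb2 with AML1-ETO9a and Tnfrsf1a lost theirs without the filter (0.0639 and 0.0534). Lifr in Booreana cells lost its call in the added setting (0.0508). Il2ra in Booreana cells gained a call in 6 settings, and when Booreana control replicate 4 was left out, or replicate 2 of the wild-type AML1-ETO9a group (as low as 0.00697). The causes were not tested. Low signal over background limits Lifr, Il6st and Il18r1, which were below detection on some arrays.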
